A study of Rattus norvegicus with 8 samples.

Results

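The genes of the constitutive proteasome were followed in kidney RNA from saline-treated and colistin-treated rats. Members were every rat gene on the array whose symbol is Psma, Psmb, Psmc or Psmd followed by a digit, without the immune-inducible subunits Psmb8, Psmb9 and Psmb10. Probes were named by matching the RefSeq accessions of the array design to rat symbols. The rule gave 35 genes, read by 38 probes, among 15637 genes named on the array and 12411 tested. Their roles were assigned from textbook knowledge. The core particle had 14 members, the alpha ring genes Psma1 to Psma7 and the beta ring genes Psmb1 to Psmb7. The regulatory particle had 16 members, namely the base ATPases Psmc1 to Psmc6, the other base subunits Psmd1, Psmd2 and Psmd4, and the lid subunits Psmd3, Psmd6, Psmd7, Psmd8, Psmd12, Psmd13 and Psmd14. Of the other 5 members, Psmd5, Psmd9 and Psmd10 are assembly chaperones of the base and Psma8 is an alpha subunit known from testis. Psmc3ip matches the rule by its letters only and is a recombination protein, not a proteasome subunit. The RefSeq table held 5 further protein-coding symbols that match the rule, Psmd11, Psmb11, Psmb3l1, Psmb3l2 and Psmb6l1, which were not analysed here.

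Kidneys of male rats labelled as 10 weeks old were sampled on day 28 after saline (n = 4) or colistin at 30 mg/kg (n = 4), with 1 one-colour array per sample. Slide 1 held saline arrays 1 and 4 and colistin array 2, and slide 2 held saline array 2 and colistin array 3. Slide 3 held saline array 3 and colistin arrays 1 and 4. Colistin is a polymyxin antibiotic known for its toxicity to the kidney tubule. The labels give no strain, no dosing schedule and no saline volume, and do not state that the 4 samples of a group came from separate animals, so p-values measure only the spread between these samples, which may be technical. The series title speaks of injured tubules, whereas the sample labels name the tissue as kidney, and tubule markers were measured in both groups, with a mean level over 10 marker genes of 3.55 to 4.60 on the saline arrays and 1.63 to 3.38 on the colistin arrays. Each value is a log2 signal relative to the 75th percentile of its own array, so 0 marks a probe as bright as that percentile. That percentile was 156 to 197 signal units on the saline arrays and 271 to 317 on the colistin arrays, and 69.3% to 75.8% of spots were well above background on the former against 79.1% to 83.9% on the latter. The part of this gap in the differences below was not tested. Of all 12411 genes, 250 (2.01%) differed between the groups at an adjusted p under 0.05 (limma, Benjamini-Hochberg), 182 higher and 68 lower with colistin. With quantile normalization 200 of 269 called genes were higher, and with scaling on the median of all genes tested 157 of 229. After a normexp background correction of the median signals 685 of 3392 were higher. Without scaling between arrays, which adds 0.78 to every gene's difference, 1004 of 1042 were higher.

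The proteasome degrades proteins that carry ubiquitin chains. Its core particle is a barrel of stacked rings, with outer alpha rings that gate the entrance and inner beta rings that hold the peptide-cutting sites in Psmb5, Psmb6 and Psmb7. The regulatory particle caps the barrel: its lid removes ubiquitin through Psmd14, its base binds ubiquitin through receptors such as Psmd4, and its ATPase ring unfolds the substrate and threads it into the core. In the kidney, filtered protein taken up by the tubule is degraded mainly in lysosomes, while the proteasome handles cytosolic and nuclear proteins. Proteasome genes in mammals are known to be raised together by the transcription factor Nfe2l1 when proteasome activity falls.

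The promoters of the catalytic subunits and of Psma4, the only core subunit with a difference below 0, are given as sequence. Whether words in them bear on how these genes are read was not tested. The windows are RefSeq sequence of the rat build GRCr8, from 250 bases before to 50 bases after the annotated start, 5′ to 3′ on the gene's strand. Capitals mark matches, on either strand, to the antioxidant response element core TGACNNNGC or to the box CCAAT, which on the opposite strand reads ATTGG. The Psmb5 window is chr15:32047330-32047629 on the minus strand, the Psmb6 window chr10:55737638-55737937 on the plus strand, the Psmb7 window chr3:42827421-42827720 on the minus strand and the Psma4 window chr8:64236270-64236569 on the plus strand.
Psmb5: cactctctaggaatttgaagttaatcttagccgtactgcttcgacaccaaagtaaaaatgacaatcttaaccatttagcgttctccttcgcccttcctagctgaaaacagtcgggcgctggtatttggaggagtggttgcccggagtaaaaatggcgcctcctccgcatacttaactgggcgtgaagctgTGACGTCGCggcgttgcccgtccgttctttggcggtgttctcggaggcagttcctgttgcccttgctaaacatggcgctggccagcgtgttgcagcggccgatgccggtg
Psmb6: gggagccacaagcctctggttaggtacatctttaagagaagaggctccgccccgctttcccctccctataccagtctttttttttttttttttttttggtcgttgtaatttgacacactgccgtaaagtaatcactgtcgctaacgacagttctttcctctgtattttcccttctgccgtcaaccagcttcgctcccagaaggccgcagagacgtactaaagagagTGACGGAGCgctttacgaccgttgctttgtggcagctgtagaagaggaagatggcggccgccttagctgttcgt
Psmb7: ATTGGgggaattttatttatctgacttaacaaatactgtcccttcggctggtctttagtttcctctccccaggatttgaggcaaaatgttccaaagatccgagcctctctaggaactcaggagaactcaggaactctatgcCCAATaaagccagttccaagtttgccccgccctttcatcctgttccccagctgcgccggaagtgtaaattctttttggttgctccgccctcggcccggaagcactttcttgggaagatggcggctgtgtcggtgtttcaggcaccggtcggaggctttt
Psma4: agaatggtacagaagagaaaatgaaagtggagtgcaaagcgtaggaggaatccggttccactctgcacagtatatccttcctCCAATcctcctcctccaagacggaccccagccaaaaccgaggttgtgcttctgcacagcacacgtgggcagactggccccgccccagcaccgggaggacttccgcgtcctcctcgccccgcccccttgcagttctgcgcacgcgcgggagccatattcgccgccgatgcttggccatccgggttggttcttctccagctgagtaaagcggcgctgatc

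Positions are counted from the start, negative before it. The Psmb5 match, TGACGTCGC, begins at -60, and the Psmb6 match, TGACGGAGC, at -24. Psmb7 carries CCAAT at -109 and ATTGG at -250, and Psma4 carries CCAAT at -168. A window was found for 26 of the 30 subunits, on 13 chromosomes. TGACNNNGC was in 6 of these 26 windows (23.1%), 4 of them core genes, against 12.2% of all 27457 promoter windows of the same length. CCAAT was in 14 of 26 (53.8%), 9 of them core genes, against 37.7% of all windows. The median colistin minus saline difference (log2) was 0.33 over the 6 subunits with TGACNNNGC and 0.37 over the 20 without it, so members with and without this word had nearly the same median. It was 0.67 over the 14 subunits with CCAAT and 0.19 over the 12 without. These are descriptions of letters in a window, with no test.

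No proteasome member passed the test between colistin and saline kidney. Among the 35 members, 0 had an adjusted p under 0.05 (limma, Benjamini-Hochberg over all 12411 genes), where 2.01% of all genes did, and the smallest adjusted p was 0.182. At an unadjusted p under 0.05 there were 5 of 35 members, 3 higher (Psma7, Psmd5, Psmd10) and 2 lower (Psma4, Psma8), against 22.7% of all genes. The 4 arrays of each group lay wholly apart for 1 member with colistin higher, Psma7, where the background was 6.89% of all genes, and for 2 with colistin lower, Psma4 and Psma8, where it was 11.7%. The shares of members were thus no higher than the background on each of these counts. The counts are small, and the shares were not tested against the background. The scanner rated the probes of all 35 members as clearly brighter than background in both groups (3 or more of the 4 arrays in each), and those of 33 members on all 8 arrays. In this kidney RNA, fewer cells of a type and less RNA per cell cannot be told apart.

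The members' differences nevertheless lay mostly on the positive side, and most were small beside their errors. The difference was above 0 in 27 of 35 members (77.1%), in 13 of 14 core genes (92.9%) and in 10 of 16 regulatory genes (62.5%), compared with 45.1% of all genes tested. Without scaling between arrays these became 13 of 14 core genes and 15 of 16 regulatory genes, beside 78.4% of all genes. The median difference (log2) was 0.45 over the core particle, 0.30 over the regulatory particle and -0.14 over all genes tested. Within the core it was 0.27 over the alpha ring and 0.66 over the beta ring. Within the regulatory particle it was 0.17 over the ATPases, 0.14 over the other base subunits and 0.34 over the lid. Of the 30 subunits, 28 had a 95% interval that held 0, and the median standard error was 0.52. In 4 subunits, Psma6, Psmb4, Psmd1 and Psmd2, the interval lay within a 2-fold change in either direction. For the other 26 the interval reached past 2-fold, so these data do not show that their levels were alike in the groups.

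**Figure D1:**
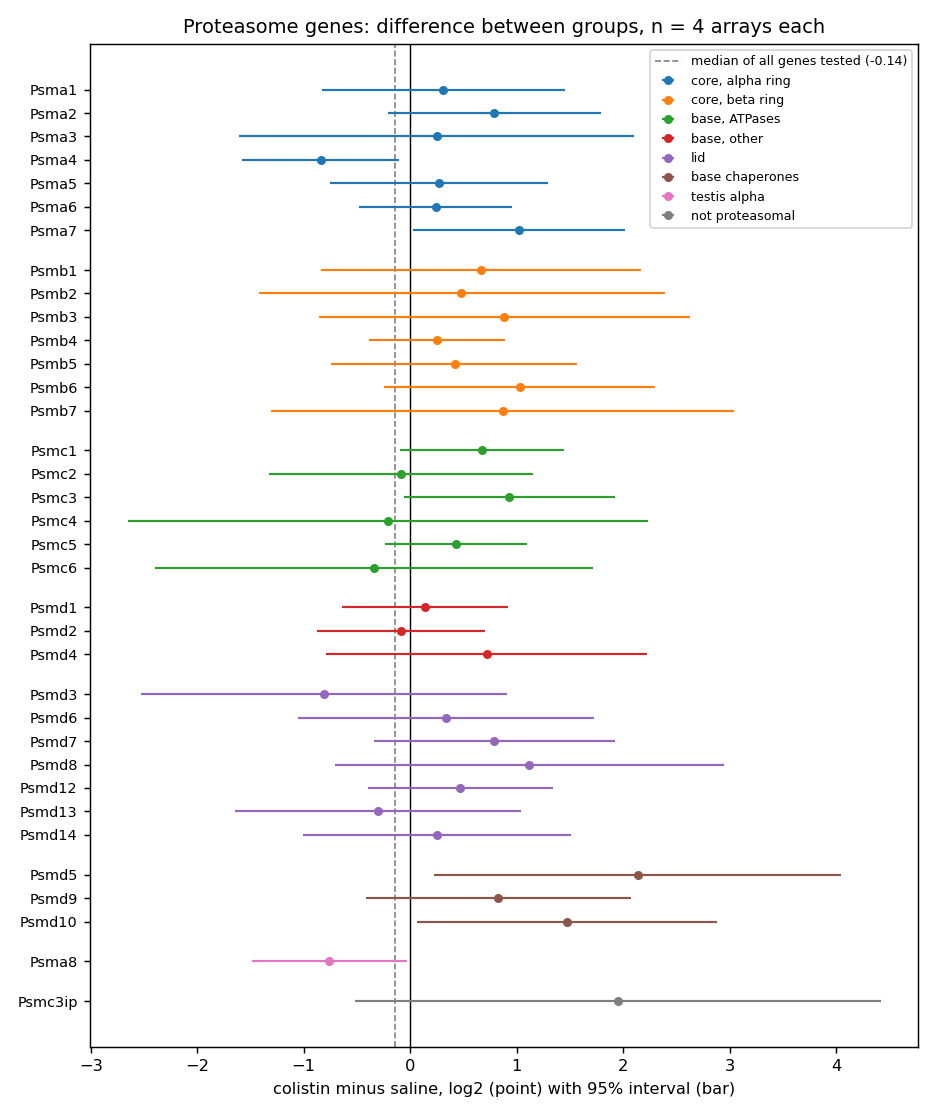
Colistin minus saline difference (log2, x axis) of each of the 35 members (y axis, ordered by role), as a point with its 95% limma interval, n = 4 arrays a group. The dashed line is the median of all genes tested, -0.14. Points of 13 of 14 core genes lie right of 0, and the intervals of 28 of the 30 subunits cross it.

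In the alpha ring the differences ran from -0.84 (Psma4) to 1.02 (Psma7). Psma7 is an alpha subunit of the outer ring. It measured 2.19, 3.93, 3.59 and 3.70 on saline arrays 1 to 4 and 4.61, 4.14, 4.11 and 4.65 on colistin arrays 1 to 4. Every colistin array lay above every saline array, with saline array 1 well below the other saline arrays. The difference was 1.02 ± 0.43 (SE; 95% interval 0.03 to 2.02; adjusted p = 0.212, limma with Benjamini-Hochberg). Within the 3 slides it was 1.19, 0.18 and 1.04. Leaving out each array in turn gave differences from 0.64 to 1.22, with adjusted p from 0.204 to 0.352, the smallest difference without saline array 1.

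Psma4, another alpha ring subunit, was the only core gene with a difference below 0. It measured 2.62, 2.24, 1.82 and 2.17 with saline and 1.78, 0.91, 1.39 and 1.39 with colistin. The groups did not overlap, the highest colistin array standing just under the lowest saline array. The difference was -0.84 ± 0.32 (95% interval -1.58 to -0.11; adjusted p = 0.182, limma with Benjamini-Hochberg), and -1.49, -0.84 and -0.24 within the slides. Leaving out each array in turn gave differences from -0.98 to -0.69, with adjusted p from 0.17 to 0.324. The other 5 alpha subunits overlapped between the groups. Their differences were 0.31 for Psma1, 0.79 for Psma2, 0.25 for Psma3, 0.27 for Psma5 and 0.24 for Psma6, with adjusted p from 0.304 to 0.873.

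All 7 beta ring genes had a difference above 0, from 0.25 (Psmb4) to 1.03 (Psmb6), and in none did the groups separate. Psmb5 carries the chymotrypsin-like site, the main target of proteasome inhibitor drugs. It measured 0.92, 2.42, 1.0 and 2.48 with saline and 1.51, 2.80, 1.85 and 2.33 with colistin. The saline arrays fell into a high and a low pair, and all colistin values but 1 lay between them. The difference was 0.42 ± 0.50 (95% interval -0.74 to 1.57; adjusted p = 0.638, limma with Benjamini-Hochberg). Leaving out each array in turn gave 0.16 to 0.68, lowest without saline array 1 and highest without saline array 4.

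Psmb6, with the caspase-like site, measured -1.34, -1.28, -0.35 and -2.93 with saline and -1.04, -0.44, 0.07 and -0.38 with colistin. Saline array 4 was the lowest, and saline array 3 reached into the colistin range. The difference was 1.03 ± 0.55 (95% interval -0.25 to 2.30; adjusted p = 0.297, limma with Benjamini-Hochberg), and 1.70, 1.35 and -0.36 within the slides. Without saline array 4, the array that lay lowest, the difference was 0.54.

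Psmb7, with the trypsin-like site, measured 0.69, 0.55, 1.24 and -3.0 with saline and 1.66, -0.49, 0.78 and 0.99 with colistin. The mean difference turned on saline array 4, which lay far below the other 7 arrays. The difference was 0.87 ± 0.95 (95% interval -1.31 to 3.04; adjusted p = 0.600, limma with Benjamini-Hochberg), and -0.09 without that array. Thus the sign for this catalytic gene was set by 1 library.

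Psmb4, a beta subunit without a cutting site, had the smallest standard error of all members. It measured 4.54, 4.34, 4.72 and 4.83 with saline and 4.80, 5.02, 5.05 and 4.56 with colistin. The groups overlapped over most of their range. The difference was 0.25 ± 0.28 (adjusted p = 0.608, limma with Benjamini-Hochberg). The remaining beta subunits gave differences of 0.66 (Psmb1), 0.48 (Psmb2) and 0.88 (Psmb3), with standard errors of 0.66, 0.83 and 0.76. Psmb2 reached 4.17 on saline array 4, where the other saline arrays gave 0.06, 1.46 and 0.48 and the colistin arrays 1.91 to 2.19.

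**Figure D2:**
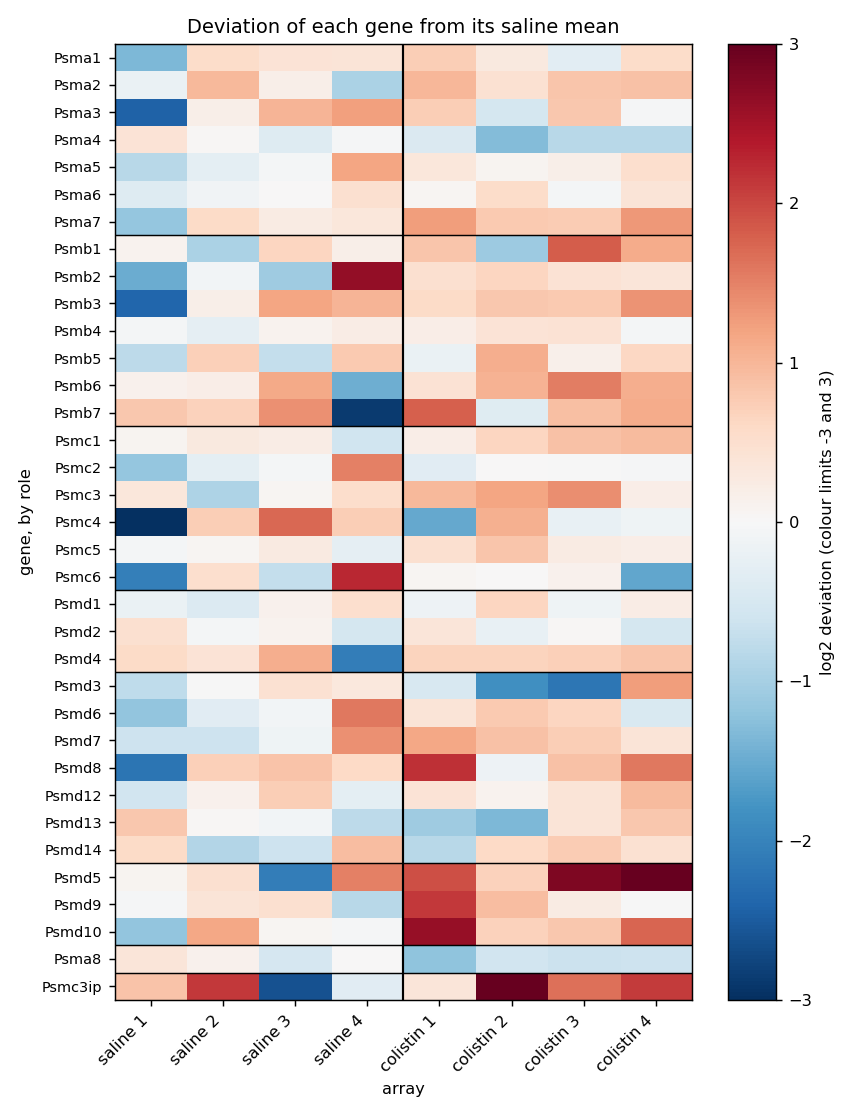
Each of the 35 members (y axis, by role) on each of the 8 arrays (x axis), coloured by its log2 deviation from the mean of the saline arrays, with colours limited at -3 and 3. Saline array 1 holds deep blue cells in Psma3, Psmb3, Psmc4, Psmc6 and Psmd8. Saline array 4 holds both deep red (Psmb2, Psmc6) and deep blue (Psmb7, Psmd4) cells.

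The base ATPases gave differences on both sides of 0, with 3 of 6 above it. Psmc3, an ATPase of the unfolding ring, had the highest. It measured 2.00, 0.74, 1.71 and 2.20 with saline and 2.63, 2.84, 3.05 and 1.85 with colistin. Of the colistin arrays, 3 lay above every saline array and colistin array 4 fell among them. The difference was 0.93 ± 0.43 (95% interval -0.06 to 1.92; adjusted p = 0.241, limma with Benjamini-Hochberg), and 0.74, 2.31 and 0.53 within the slides.

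Psmc6, another ATPase of the ring, had the lowest difference of the base ATPases. It measured -2.23, 0.33, -0.90 and 2.08 with saline and -0.11, -0.16, -0.05 and -1.75 with colistin. The saline arrays were spread over a range that held all colistin values, and colistin array 4 stood apart from its group. The difference was -0.34 ± 0.90 (adjusted p = 0.842, limma with Benjamini-Hochberg), and 0.42 without saline array 4 or 0.07 without colistin array 4. The other ATPases gave 0.67 ± 0.33 (Psmc1), -0.09 ± 0.54 (Psmc2), -0.21 ± 1.06 (Psmc4) and 0.43 ± 0.29 (Psmc5).

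The ubiquitin receptors of the base, Psmd2 and Psmd4, differed in how their arrays spread. Psmd2, a scaffold that binds ubiquitin-like domains, measured 2.96, 2.40, 2.58 and 1.94 with saline and 2.84, 2.24, 2.51 and 1.94 with colistin. The groups covered nearly the same range. The difference was -0.09 ± 0.34 (95% interval -0.88 to 0.70; adjusted p = 0.893, limma with Benjamini-Hochberg), and its sign turned without saline array 1 (0.07), without colistin array 4 (0.06) and after normexp correction (0.01). Psmd4, which binds ubiquitin chains, measured 1.61, 1.45, 2.14 and -1.04 with saline and 1.70, 1.70, 1.76 and 1.87 with colistin. The colistin arrays were almost equal, and saline array 4 lay far below all others. The difference was 0.72 ± 0.65 (adjusted p = 0.522, limma with Benjamini-Hochberg), and 0.03 without saline array 4 or -0.03 without saline arrays 1 and 4. Psmd1, the other large scaffold of the base, gave 0.14 ± 0.34.

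In the lid, 5 of 7 genes had a difference above 0. Psmd14, the deubiquitinase that removes ubiquitin chains before a substrate enters the core, measured -1.24, -2.69, -2.42 and -0.88 with saline and -2.63, -1.22, -1.04 and -1.34 with colistin. The groups overlapped fully, with low and high arrays in each. The difference was 0.25 ± 0.55 (95% interval -1.01 to 1.51; adjusted p = 0.804, limma with Benjamini-Hochberg), and -0.05 without saline array 2.

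Psmd8, a lid subunit, had the highest difference of the lid. It measured -3.52, -0.61, -0.47 and -0.73 with saline and 0.85, -1.48, -0.46 and 0.25 with colistin. Saline array 1 lay far below the rest, and the other saline arrays sat inside the colistin range. The difference was 1.12 ± 0.80 (adjusted p = 0.415, limma with Benjamini-Hochberg) and 0.39 without saline array 1.

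Psmd3, a lid scaffold subunit, had the lowest difference of the lid. It measured -0.10, 0.65, 1.13 and 0.98 with saline and 0.19, -1.18, -1.51 and 1.91 with colistin. Here the colistin arrays, not the saline arrays, were widely spread, with colistin arrays 2 and 3 low. The difference was -0.81 ± 0.75 (adjusted p = 0.529, limma with Benjamini-Hochberg). It was -0.47 without colistin array 2, -0.36 without colistin array 3 and -1.50 without colistin array 4. The other lid genes gave 0.34 ± 0.60 (Psmd6), 0.79 ± 0.49 (Psmd7), 0.47 ± 0.38 (Psmd12) and -0.30 ± 0.59 (Psmd13).

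The base chaperones, which hold ATPases together before the regulatory particle is complete, had a median difference of 1.47 over 3 genes. Psmd10, also called gankyrin, measured -0.62, 1.73, 0.61 and 0.52 with saline and 3.18, 1.26, 1.38 and 2.31 with colistin, a difference of 1.47 ± 0.61 (adjusted p = 0.206, limma with Benjamini-Hochberg). The groups overlapped through saline array 2. Psmd5 measured -3.34, -2.93, -5.49 and -1.89 with saline and -1.47, -2.72, -0.62 and -0.29 with colistin, a difference of 2.14 ± 0.83 (adjusted p = 0.188, limma with Benjamini-Hochberg). The scanner rated its probe as clearly above background on 3 of the 4 saline arrays, and the groups overlapped through colistin array 2. Psmd9 gave 0.82 ± 0.54 by its brightest probe and -0.01 by its other probe, so its probes disagreed. These 3 genes, Psma8 and Psmc3ip are described with their values because every member is accounted for.

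Psma8, the testis-known alpha subunit, measured -3.19, -3.41, -4.05 and -3.53 with saline and -4.76, -4.13, -4.18 and -4.17 with colistin. The groups did not overlap, and the difference was -0.76 ± 0.32 (adjusted p = 0.206, limma with Benjamini-Hochberg). Its other 2 probes gave -0.52 and -0.72 and were too dim to enter the test. Psmc3ip gave 1.95 ± 1.07 (adjusted p = 0.306, limma with Benjamini-Hochberg), with saline arrays from -6.70 to -1.96 and colistin arrays from -3.72 to -0.39, which overlap. Its lowest value was on saline array 3, the scanner rated it as clearly above background on 3 of the 4 saline arrays, and after normexp correction the difference was 0.35. Like genes or pseudogenes of 15 of the 35 members are in the RefSeq table, and whether a probe also reads their RNA was not tested.

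The particles were also followed array by array. The median deviation of the 14 core genes from their saline means was -0.59, 0.17, 0.20 and 0.37 on saline arrays 1 to 4 and 0.53, 0.43, 0.60 and 0.59 on colistin arrays 1 to 4. Each colistin array was above each saline array, with a mean of 0.53 (SD 0.08, n = 4) against 0.04 (SD 0.43, n = 4). For the 16 regulatory genes the values were -0.39, 0.01, 0.12 and 0.52 with saline and 0.28, 0.61, 0.39 and 0.29 with colistin. Here saline array 4 lay above all colistin arrays but 1, and the groups overlapped. Over all genes tested the same median was 0.08, -0.08, -0.05 and 0.02 on saline arrays 1 to 4 and -0.28 to -0.07 with colistin. Both particle medians lay above it on each colistin array, and also on saline arrays 2, 3 and 4. On saline array 1 both lay below it.

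**Figure D3:**
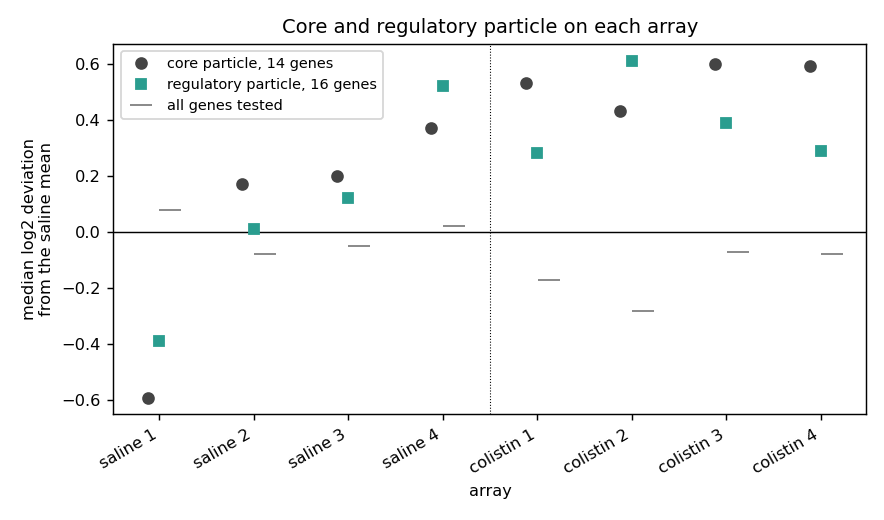
Median log2 deviation from the saline mean (y axis) on each of the 8 arrays (x axis) for the 14 core genes (circles), the 16 regulatory genes (squares) and all genes tested (dashes). Core medians with colistin, 0.43 to 0.60, lie above all 4 saline medians, -0.59 to 0.37. Regulatory medians overlap, since saline array 4 is at 0.52.

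Core and regulatory genes were then set against each other on the same array. The core median minus the regulatory median was -0.20, 0.16, 0.09 and -0.15 on the saline arrays and 0.24, -0.19, 0.21 and 0.29 on the colistin arrays. The group means were -0.03 (SD 0.18) and 0.14 (SD 0.22), closer together than the spread within either group, and colistin array 2 lay with the saline arrays. A difference between the particles was therefore not seen beyond the array spread. Each of the 3 slides held both groups, but slide 2 held only 1 array of each. Slide 1 held only 1 colistin array and slide 3 only 1 saline array. Within slides 1 to 3 the colistin minus saline median was 0.59, 0.35 and 0.23 over core genes. Over regulatory genes it was 0.53, 0.28 and -0.03. With slide as a block in the fit the core and regulatory medians were 0.38 and 0.34.

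A single saline array carried much of the core value. Saline array 1 was the lowest of its group for 16 of the 30 subunits (53.3%), against 22.3% of all genes, and 10 subunits lay more than 1 log2 unit below their saline mean there: Psma1, Psma3, Psma7, Psmb2, Psmb3, Psmc2, Psmc4, Psmc6, Psmd6 and Psmd8. On saline array 4, 8 subunits lay more than 1 above and 3 more than 1 below (Psmb6, Psmb7, Psmd4). Without saline array 1 the core median was 0.13, with 9 of 14 core genes above 0, and the count of members at an unadjusted p under 0.05 went from 5 to 0. The regulatory median was 0.18 without saline array 1, 0.13 without saline array 2 and 0.16 without colistin array 2. That count of 5 was also 3 without saline array 3, 3 without colistin array 2, 2 without colistin array 4, 1 without colistin array 1 or 3 and 6 without saline array 4. It was 9 after normexp correction, and 17 without scaling between arrays. The share of all genes at that p is not given for these settings. At an adjusted p under 0.05 (limma), 3392 of all genes were called after normexp correction and 1042 without scaling, against 250 in the main fit. With 1 array left out it was 77 to 254. The member counts are thus not a result about the members alone. The subunits varied more among saline than among colistin arrays: the saline SD was the larger in 24 of 30 subunits (80.0%), with median SDs of 0.86 and 0.38. This was also so in 67.2% of all genes, with median SDs of 0.84 and 0.59.

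**Figure D4:**
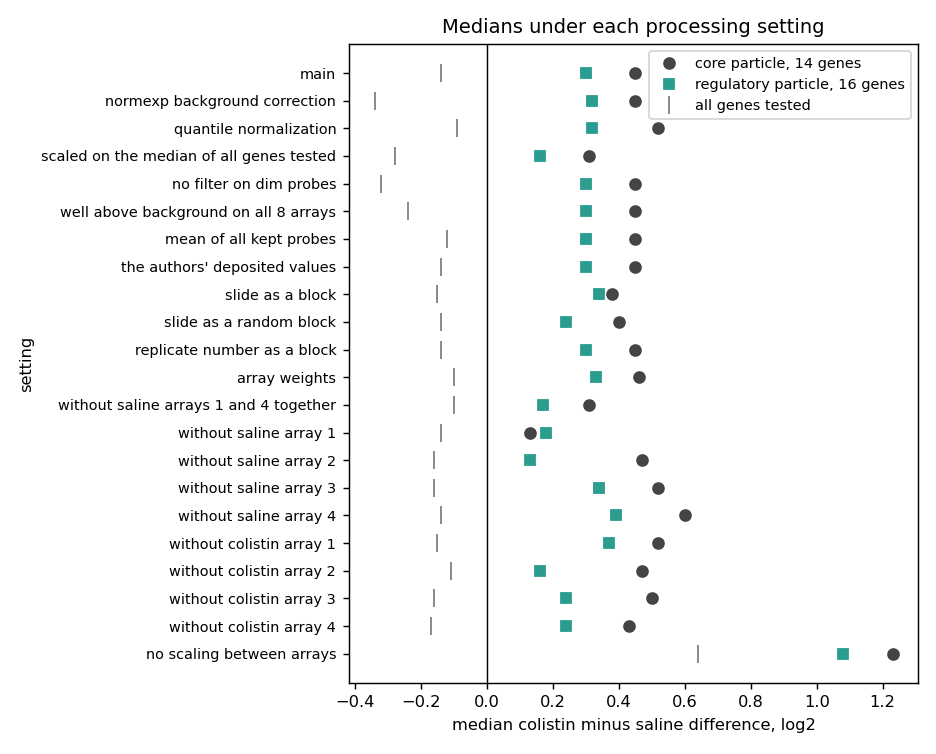
Median colistin minus saline difference (log2, x axis) of the core genes (circles), regulatory genes (squares) and all genes tested (bars) under each processing setting (y axis). Core and regulatory medians stay right of the median of all genes in every setting drawn. The core median is lowest, 0.13, without saline array 1, and highest, 1.23, without scaling between arrays, where the median of all genes is 0.64.

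The inducible subunits, which replace the catalytic subunits in the immunoproteasome, gave differences of 1.09 to 2.32, beside 0.42 to 1.03 for the genes they replace. This contrast was not tested. Psmb9, which takes the place of Psmb6, measured 0.16, 0.43, -1.21 and -2.25 with saline and 1.85, 1.49, 1.26 and 1.79 with colistin. All colistin arrays lay above all saline arrays. The difference was 2.32 ± 0.60 (95% interval 0.94 to 3.70; adjusted p = 0.0957, limma with Benjamini-Hochberg), and 2.53, 0.83 and 3.03 within the slides. Psmb8, which takes the place of Psmb5, measured -3.63, 0.84, -3.06 and -3.47 with saline and -1.05, -1.09, -0.69 and 1.04 with colistin, and saline array 2 stood with the colistin arrays. Its difference was 1.88 ± 1.04 (adjusted p = 0.307, limma with Benjamini-Hochberg). Psmb10, which takes the place of Psmb7, measured 2.34, 1.33, 0.71 and 2.38 with saline and 2.72, 3.07, 2.46 and 2.85 with colistin, without overlap, a difference of 1.09 ± 0.44 (adjusted p = 0.198, limma with Benjamini-Hochberg). Psmb9 and Psmb10 passed the threshold after normexp correction (adjusted p = 0.0313 and 0.0455, limma) and without scaling between arrays (0.0291 and 0.0312). In these settings 3392 and 1042 of all 12411 genes passed it, against 250 in the main fit. Over the alternatives the adjusted p ranged from 0.0291 to 0.212 for Psmb9 and from 0.0312 to 0.336 for Psmb10.

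**Figure D5:**
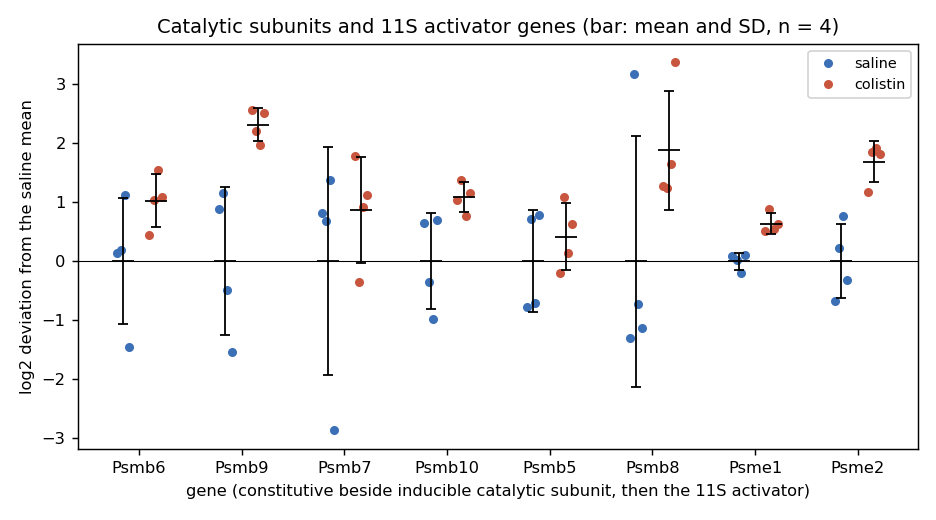
Log2 deviation from the saline mean (y axis) of each catalytic subunit gene beside its inducible counterpart, and of the activator genes Psme1 and Psme2 (x axis), with 1 point per array and a bar for the mean and SD of each group, n = 4. The groups lie apart for Psmb9, Psmb10, Psme1 and Psme2 and overlap for Psmb5, Psmb6, Psmb7 and Psmb8.

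Psme1 and Psme2 encode the activator cap that opens the core without ubiquitin and is known to be raised by interferon. Psme1 measured 5.68, 5.60, 5.38 and 5.69 with saline and 6.09, 6.47, 6.13 and 6.21 with colistin. Psme2 measured -1.07, -0.17, 0.36 and -0.72 with saline and 0.77, 1.45, 1.52 and 1.41 with colistin. In both genes every colistin array lay above every saline array. The differences were 0.64 ± 0.26 (adjusted p = 0.202) and 1.69 ± 0.39 (95% interval 0.79 to 2.59; adjusted p = 0.0772), by limma with Benjamini-Hochberg. Neither passed the threshold, and both did after normexp correction (adjusted p = 0.0289 and 0.0259, limma) and without scaling between arrays (0.0214 and 0.0203). Of all 12411 genes, 3392 passed it after normexp correction and 1042 without scaling, against 250 in the main fit. Over the alternatives the adjusted p ranged from 0.0214 to 0.356 for Psme1 and from 0.0203 to 0.198 for Psme2.

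Of the other genes of the pathway, 0 were called in any list by limma. At an unadjusted p under 0.05 with colistin higher, where the background was 10.5% of all genes, were 2 of 3 inducible subunits, 2 of 5 activators and inhibitor, 2 of 3 core chaperones, 1 of 4 particle-binding proteins, 1 of 9 genes of transcription and import, 3 of 10 shuttles and cofactors, 1 of 4 ubiquitin genes and 0 of 9 activating and conjugating enzymes. The 1 gene of transcription and import was Nfya, well above background on 1 saline and 4 colistin arrays. It entered the test only through the colistin arrays, where it was higher, so the filter favoured a positive difference in it. The inducible subunits had a median difference of 1.88, with 3 of 3 above 0, and the activators and the inhibitor Psmf1 one of 0.64, with 4 of 5 above 0. The core assembly chaperones had a median of 1.15 over 3 genes. Among them Pomp, the maturation factor of the core, measured 1.87, 2.35, 2.54 and 3.52 with saline and 2.14, 2.46, 2.60 and 2.50 with colistin, a difference of -0.14 ± 0.39 (adjusted p = 0.847, limma with Benjamini-Hochberg). Proteins that bind the particle had a median of 0.84 over 4 genes. Among these the ubiquitin receptor Adrm1 measured 2.13, 1.06, 2.44 and 1.39 with saline and 2.40, 0.94, 1.29 and 1.75 with colistin, a difference of -0.16 ± 0.46 (adjusted p = 0.855, limma with Benjamini-Hochberg). Pomp and Adrm1 thus overlapped fully between the groups.

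Upstream of the particle, genes of transcription and nuclear import had a median of 0.30 over 9 genes, and Nfe2l1 was not analysed here. Shuttles and unfoldase cofactors, which bring ubiquitinated proteins to the proteasome, had a median of 0.53 over 10 genes, 3 of which, Rad23b, Ubqln2 and Faf1, did not overlap between the groups with colistin higher (6.89% of all genes). The ubiquitin genes had a median of 0.18 over 4 genes, and ubiquitin-activating and broadly acting conjugating enzymes one of 0.58 over 9 genes, of which 8 were above 0. The median of all genes tested, -0.14, lay below each of these list medians.

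Markers of other cell types moved with the groups, and their part in the proteasome values was not tested. Of all 12411 genes tested, 6815 had a difference below 0 and 5596 above it, with 68 called lower and 182 higher. At an unadjusted p under 0.05 (limma), 1515 of all genes were lower and 1301 higher. All 9 endothelial markers tested had a difference below 0, with a median of -2.87 and 4 called lower. Of the 9, Tie1 and Tek entered the test only through the saline arrays, where they were higher. They were well above background on 0 and 1 of the 4 colistin arrays, and neither was called. The mean endothelial level was -0.32 to 0.91 on saline arrays and -3.07 to -1.74 on colistin arrays. Fibroblast markers were below 0 in 6 of 6, with 1 called lower (1.17 to 1.68 against -1.02 to -0.82), macrophage markers in 8 of 8, with 1 called lower (0.04 to 0.89 against -1.12 to -0.42), and erythrocyte markers in 5 of 5, with 2 called lower (-0.19 to 1.81 against -2.01 to 0.08). Lymphocyte markers were below 0 in 4 of 4, with 1 called lower (-2.59 to -1.62 against -3.54 to -2.79), while Cd3e, Cd8a and Cd2 were too dim to test. Neutrophil markers were below 0 in 3 of 3, with 0 called by limma and 2 at an unadjusted p under 0.05 (-4.45 to -2.24 against -5.31 to -4.47). Of the 3, Ngp was well above background on 2 saline and 3 colistin arrays. It entered the test only through the colistin arrays, where its mean was lower. The same held for the erythrocyte marker Ahsp, with the same counts. The listed neutrophil markers S100a8, Cxcr2, Mmp8 and Elane were on the array but did not enter the test. Nor did Ehd3 (endothelial), Cd163 and Mrc1 (macrophage) or Lum and Postn (fibroblast). Tubule markers were below 0 in 7 of 10, with 1 called lower. Tubule injury markers were above 0 in 8 of 9, with a median of 1.01 and 2 called higher, Havcr1 and Spp1. Proliferation markers had 0 of 7 called by limma, 1 (Plk1) at an unadjusted p under 0.05, and a median of 0.85 (-4.29 to -2.06 against -2.93 to -1.27). Plk1 was well above background on 1 saline and 4 colistin arrays, and Bub1 on 1 and 3. Both entered the test only through the colistin arrays, where they were higher, so the filter favoured a positive difference in them.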

How the data were processed

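Total RNA of 8 rat kidney samples was amplified to cDNA, labelled with Cy3 and hybridised to one-colour Agilent arrays, per the labels' protocols. The deposited scanner files hold intensity values per spot, which the submitters' processing notes credit to Agilent Feature Extraction 10.5. Control and outlier spots were left out, spots of a probe were averaged as log2, and each array's 75th percentile was subtracted. A probe was kept if the scanner software rated it well above background on 3 or more arrays in saline or in colistin, and the brightest probe stood for a gene. All 12411 genes were fitted with limma 3.58.1 (lmFit, eBayes, two-sided, no covariates) in R 4.3.3, with Benjamini-Hochberg adjustment over all of them and calls at an adjusted p under 0.05. The script was tested on simulated data. The authors' deposited table holds log2 values of the same arrays, centred per probe, with column medians from -0.23 to 0.233; how it was scaled and centred is not stated in the sources used here, and it served as an alternative.

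The members and gene lists were chosen with earlier results of these data known, and roles come from textbook knowledge. Members given on every array were the catalytic subunits, Psmd14, Psmd2, Psmd4, and the highest and lowest difference in each of the alpha ring, beta ring, ATPases and lid, plus called genes. Of related genes, those given were Psmb8, Psmb9, Psmb10, Psme1, Psme2, Pomp and Adrm1. Base chaperones, Psma8 and Psmc3ip were added after their values were seen. Alternatives changed the background correction (normexp with offset 50, on median signals because no mean signal column was present), scaling, filter, probe choice, slide, replicate number and the arrays used. Absence of scaling was added after the data were seen. Median deviations of a list have no test. Same-numbered arrays had correlations of deviations from -0.0205 to 0.0133. Of the saline arrays, only number 3 correlated best with the colistin array of its own number. A pairing by number was thus not seen, though such correlations cannot exclude one. With 4 arrays per group, their number limits the precision.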

Additional observations from a re-analysis of the deposited data

Results flagged for a closer look

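Of 44 groups of 4 arrays checked, saline and colistin for each of the 13 members and 7 related genes given on every array by rule and for both particle medians, 5 held an array far from the others (its gap to the nearest array, as a part of the group's range, above Dixon's 95% critical value). Chance marks about 1 in 20 groups in this way. Psmb7 was at -3.0 on saline array 4 (0.838 of the range). Psmd8 was at -3.52 on saline array 1 (0.915). Psmc6 was at -1.75 on colistin array 4 (0.939). Psmb8 was at 0.84 on saline array 2 (0.871). Psme2 was at 0.77 on colistin array 1 (0.855).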

How the results depend on the processing

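The count of members called, 0, held in every alternative run except normexp correction, where it was 1 (Psma8, -0.58, adjusted p = 0.033 by limma), and no scaling between arrays, where it was 2 (Psmc1, 1.45, adjusted p = 0.0488, and Psmc3, 1.71, adjusted p = 0.0359). The smallest adjusted p among members was otherwise 0.11 or more. With each array left out in turn the count was 0 to 0, the core median 0.13 to 0.60, the regulatory median 0.13 to 0.39, the related genes called 0 to 1 (Nfya, without saline array 2) and all genes called 77 to 254. Nfya had entered the test only through the colistin arrays, where it was higher. All genes called numbered 3392 after normexp, 40 with slide as a block, 143 without saline arrays 1 and 4, and 1042 without scaling, where the core median was 1.23 and the regulatory median 1.08, against 0.64 for all genes. The core median minus that of all genes was 0.59 with and without scaling. Related genes called, over all the lists of 3 to 10 tested genes each, were 9 after normexp and 10 without scaling. In these settings 3392 and 1042 of all 12411 genes were called, and the related genes were not tested against that share. With the replicate block, 5 of all genes and 0 members were called, and the core and regulatory medians stayed at 0.45 and 0.30. Of the values of single named genes, 394 kept sign and side of the threshold, 9 passed it and 17 changed sign. Dropping the scaling adds 0.78 to the difference of every gene, and in that setting signs turned for Adrm1 (0.62), Pomp (0.64), Psmc6 (0.45) and Psmd2 (0.69). After normexp they turned for Psmd14 (-0.04) and Psmd2 (0.01). Without saline arrays 1 and 4 they turned for Psmb7 (-0.16) and Psmd4 (-0.03). With 1 array left out they turned for Adrm1 (-0.43 to 0.07), Pomp (-0.38 to 0.17), Psmb7 (-0.09 to 1.32), Psmc6 (-1.02 to 0.42), Psmd14 (-0.05 to 0.61) and Psmd2 (-0.27 to 0.07). The cause was not tested.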
